A study of Mus musculus with 6 samples.

Results

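Cdkal1 and 7 other enzymes that modify transfer RNA (tRNA) were followed in RNA sequencing of quadriceps labelled as mouse, the muscle that extends the knee. The 8 genes are Cdkal1, Cdk5rap1, Elp3, Trmu, Mto1, Gtpbp3, Trit1 and Nsun2, and they were taken by name from the 20015 rows of the deposited table. All 8 were in the table, and all 8 passed the filter on low counts that left 16095 genes for the fit. The set was chosen by measured values of these same libraries: Cdkal1 is 1 of the 5 genes that were lower after injury at an adjusted p under 0.05, and the rule lists the other 7 by name beside it as enzymes of tRNA modification. The differences of the 8 genes between injured and non-injured muscle are therefore given as a description, and the fit's values for them are not support for anything.

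The series holds 6 libraries: 3 from quadriceps with an injured anterior cruciate ligament (ACL, a ligament that steadies the knee) and 3 from quadriceps without that injury. Each group has letters A, B and C. Library totals ran from 6452791 to 8752501 counts. The labels give Mus musculus as the organism, while the series' own text speaks of human tissue taken before reconstruction surgery, and this conflict is not settled by the files beyond the gene models. The gene models are those of mouse. No source used here gives the strain, the age, how the ligament was injured, the time since injury or whether a group's libraries are from separate animals, so the spread between libraries may be technical. The deposited table is named for myonuclear RNA, that is, RNA of muscle fibre nuclei, and the extraction described in the labels is of RNA from muscle with no step for nuclei. The 7 muscle fibre markers (Acta1, Ckm, Myh4, Ttn, Mb, Tnnt3, Atp2a1) together took 167400 to 175500 CPM (counts scaled by TMM to a common library size) in injured and 184200 to 190900 CPM in non-injured libraries, the level of an abundant class of transcripts in every library.

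A tRNA carries an amino acid to the ribosome and reads the messenger RNA with its anticodon. Chemical groups are added to bases in the anticodon and beside it after the tRNA is made, and they help the anticodon to read its codons accurately. Some of the enzymes act on tRNAs of the cytosol, others on tRNAs that the mitochondrial genome encodes, which muscle uses to make core subunits of the respiratory chain. Cdkal1 adds a methylthio group to a modified adenosine beside the anticodon of a cytosolic lysine tRNA. Human variants at its gene are known for their association with type 2 diabetes. Cdk5rap1 is a relative of Cdkal1 and adds methylthio groups to mitochondrial tRNAs. Trit1 makes the isopentenyl adenosine on which Cdk5rap1 acts, and Elp3 is the catalytic subunit of Elongator, which modifies uridines at the first anticodon base in the cytosol. Mto1 and Gtpbp3 work together on the same base of mitochondrial tRNAs, and Trmu adds sulphur there. Nsun2 methylates cytosines of tRNAs.

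Cdkal1, Cdk5rap1 and Elp3 belong to the radical SAM enzymes, which hold an iron-sulphur cluster through 3 cysteines. The coding stretches below show how Cdkal1 and Cdk5rap1 share a layout that Elp3 does not. They were read from the GENCODE M21 transcripts, and capitals mark the cysteine codons, TGT or TGC.
Cdkal1: gggTGTctcaatgctTGTacctacTGCaaa
Cdk5rap1: ggcTGCgacaacatgTGCagttacTGTatc
Elp3: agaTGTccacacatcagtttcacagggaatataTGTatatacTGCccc
Cdkal1 and Cdk5rap1 have 3 and then 2 codons between their cysteine codons, and Elp3 has 9 and then 2. The search covered the main coding transcript of each of the 8 genes and found these layouts in the 3 enzymes named and in 0 of the other 5.

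Cdkal1 was lower in every injured library than in every non-injured one. It had 522, 404 and 500 estimated counts in injured libraries A, B and C and 818, 1122 and 987 in non-injured libraries A, B and C. Scaled to library size these were 79.9, 61.7 and 71.2 CPM against 104, 129 and 132 CPM. The lowest non-injured library and the highest injured library both carry the letter A, and they are the nearest of the 2 groups. The means were 71.0 ± 9.09 CPM in injured and 122 ± 15.2 CPM in non-injured muscle (SD, n = 3 each), and the fitted log2 fold change was -0.78 ± 0.15 (SE), which is a level 1.72-fold higher in non-injured muscle. Its adjusted p of 0.0388 (edgeR quasi-likelihood test, Benjamini-Hochberg over 16095 genes) is the value by which the gene was chosen. Of the 8 genes 1 was called lower and 0 higher, where 0.0311% of all genes were called lower and 0.715% higher, and nothing is read from that count.

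The log2 fold change of Cdkal1 was negative in all 14 other settings, from -0.98 to -0.69, and the call was kept in 9. Cdkal1 was chosen on this contrast and its groups did not overlap, so its sign could hardly turn and lends no support. Without injured B the log2 fold change was -0.69 (adjusted p 0.138), without injured C -0.80 (0.115), without non-injured B -0.75 (0.147) and without non-injured C -0.74 (0.213), in edgeR fits of the 5 libraries left. The call was also lost among genes with a mean of at least 50 counts (-0.71, adjusted p 0.0559). Leaving out injured A or non-injured A kept it, at -0.89 and -0.90, and without both letter A libraries the value was -0.98 (adjusted p 0.00258). Over the 14 settings the adjusted p ran from 0.000976 (DESeq2) to 0.213.

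**Figure D1:**
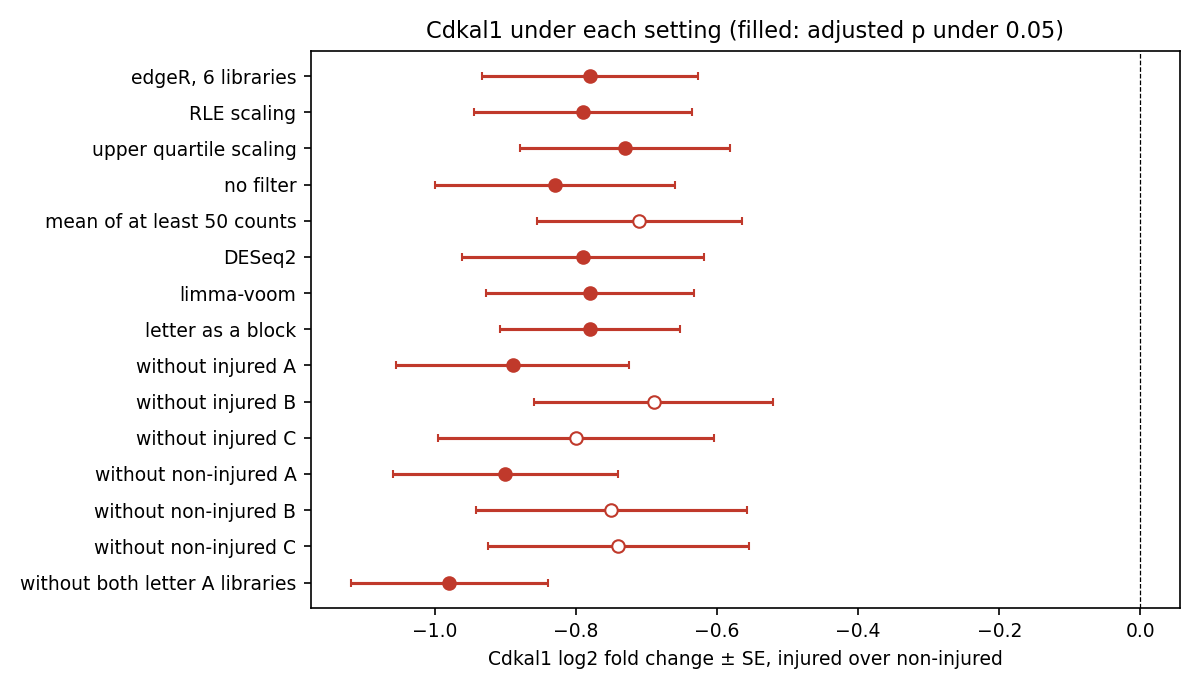
Log2 fold change of Cdkal1, injured over non-injured, on the horizontal axis with its standard error, for the fit of 6 libraries and each of 14 other settings; filled points have an adjusted p under 0.05. All 15 points lie below 0, between -0.98 and -0.69, and 5 of the settings are open points.

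Marker genes of several cell types also differed between the groups. Summed over their tested markers, macrophage genes (7 of the 8 listed were tested) took 87.0 to 160 CPM in injured and 37.2 to 43.9 CPM in non-injured libraries. The 5 adipocyte markers took 37.8 to 51.8 against 58.6 to 84.3 CPM. The sum of the 7 fibre markers was lower in injured libraries as given above, although 0 of the 7 passed the test and their median log2 fold change was -0.03. Most of that sum was Ttn, with means of 134025 CPM in injured and 143548 CPM in non-injured libraries. The 5 erythroid markers took 132 to 324 against 71.4 to 151 CPM, the 7 of fibro-adipogenic progenitors 604 to 810 against 606 to 686 CPM, and the 6 of endothelium 84.6 to 91.4 against 74.0 to 83.5 CPM. Of these markers 6 rose and 0 fell in edgeR without the letter block: Itgam, Lyz2, C1qb and Mrc1 of macrophages, by 1.04 to 2.68 on the log2 scale, Col1a1 of progenitors (2.56 ± 0.27 SE, adjusted p 0.00101) and Hba-a1 of red cells (1.72 ± 0.34, adjusted p 0.0422), whose reads may be shared with its near copy Hba-a2. The 7 progenitor markers were not alike. In 3 of them every injured library lay above every non-injured one, and in 1, Gsn, below (-0.31 ± 0.14 SE), while Dcn had 0.00 ± 0.16. The adipocyte markers with the smallest p were Cidec and Plin1 (-1.06 and -1.14, adjusted p 0.143 and 0.159 without the block). With the letter as a block both fell (adjusted p 0.0136 and 0.0299, edgeR), and 7 macrophage, 4 erythroid and 1 progenitor marker rose. None of the tested markers was at 0 in a whole group. If the RNA is of whole tissue, fewer cells of a type and less RNA per cell cannot be told apart. The name of the deposited table speaks of myonuclear RNA instead, and which input was used is not settled here. The part of these markers in the difference of Cdkal1 was not tested.

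The other enzyme of the methylthio step, Cdk5rap1, was less even. It had 12.2, 7.64 and 14.4 CPM in injured libraries A, B and C and 14.4, 20.0 and 13.7 CPM in non-injured libraries A, B and C. The groups overlapped, because injured C lay above non-injured C and letter B alone gave a wide gap. The log2 fold change was -0.49 ± 0.25 (SE), and it moved between -0.71 and -0.27 over the 14 settings. Trit1, which acts one step before Cdk5rap1, had 27, 39 and 32 counts in injured and 52, 64 and 58 in non-injured libraries A, B and C, or 4.13, 5.96 and 4.56 CPM against 6.63, 7.35 and 7.76 CPM. Every injured library was below every non-injured one, at the lowest counts of the 8 genes. Its log2 fold change of -0.57 ± 0.26 was the nearest to that of Cdkal1.

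The start regions of Cdkal1 and Trit1 are shown because both genes had groups that did not overlap and both have an entry in the promoter table. The 250 bases before each start come from RefSeq (GRCm38.p6), Cdkal1 at chr13:29855674-29855923 on the minus strand and Trit1 at chr4:123016343-123016592 on the plus strand, each printed in the direction of its gene. Capitals mark matches to any of 5 motifs: the E-box CAGCTG, of the kind bound by myogenic factors, the box known as CCAAT, the GC box of Sp factors, which reads GGGCGG, the motif of ETS factors, which reads CCGGAAG, and the NRF1 core, a palindrome of 10 bases. Both strands were searched.
Cdkal1: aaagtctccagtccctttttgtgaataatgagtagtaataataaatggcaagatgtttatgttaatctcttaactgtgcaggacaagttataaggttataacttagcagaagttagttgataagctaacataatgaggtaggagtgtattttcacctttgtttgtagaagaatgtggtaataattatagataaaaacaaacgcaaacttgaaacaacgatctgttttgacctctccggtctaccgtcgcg
Trit1: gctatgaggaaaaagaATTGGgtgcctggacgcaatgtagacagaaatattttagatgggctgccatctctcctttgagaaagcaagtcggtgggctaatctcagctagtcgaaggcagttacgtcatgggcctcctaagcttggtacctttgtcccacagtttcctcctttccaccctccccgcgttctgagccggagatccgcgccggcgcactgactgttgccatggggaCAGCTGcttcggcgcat
The Cdkal1 window holds 0 matches and the Trit1 window 2, a CAGCTG and a CCAAT read from the other strand. The Cdkal1 window is poor in G and C, at 34.4% against 48.8% to 67.2% for the other 6 genes with a window and a median of 52.4% over all windows, of which 4.25% had less. Over all 32851 promoter windows of this length, 13% held CAGCTG, 33.8% CCAAT, 32.7% GGGCGG, 6.91% CCGGAAG and 0.782% the NRF1 core. Of the 8 genes 7 had a window, Elp3 being the other, and of these 2 held CAGCTG (Trit1 and Trmu), 3 CCAAT (Mto1, Gtpbp3 and Trit1), 2 GGGCGG (Cdk5rap1 and Gtpbp3) and 0 either of the last 2 motifs. Only the first RefSeq entry of each gene was used. The windows of Cdk5rap1, Gtpbp3 and Nsun2 lie inside the GENCODE models of these genes, not before them. A match is no evidence of binding, and the lack of a match says only that these letters are not in the window.

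The enzymes of the first anticodon base differed among themselves. Elp3 had 24.0, 29.3 and 33.5 CPM in injured and 41.3, 34.3 and 36.1 CPM in non-injured libraries A, B and C. The groups did not overlap, but injured C and non-injured B were only just apart, and letter A gave most of the gap. The log2 fold change of Elp3 was -0.36 ± 0.16 (SE), and -0.17 without both letter A libraries. Mto1 had 11.8, 13.9 and 14.8 CPM against 20.0, 14.2 and 14.6 CPM, so that non-injured A stood alone above the other 5 libraries. Its log2 fold change of -0.27 ± 0.20 became -0.01 without both letter A libraries.

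Gtpbp3, the partner of Mto1, did not share its sign. It had 16.2, 25.8 and 21.2 CPM in injured and 18.6, 21.9 and 17.9 CPM in non-injured libraries A, B and C, and the injured libraries lay on both sides of the non-injured ones (log2 fold change 0.11 ± 0.19 SE). Trmu, the enzyme that adds sulphur, had 11.2, 14.1 and 12.8 CPM against 13.4, 13.2 and 11.4 CPM. Its group means were 12.7 ± 1.45 and 12.7 ± 1.11 CPM, and the log2 fold change was 0.00 ± 0.19 (SE). Over the 14 settings Trmu ran from -0.10 to 0.12, on both sides of 0, and Gtpbp3 from -0.06 to 0.25, with 1 negative value, without injured B. Nsun2, the cytosine methylase, had 35.1, 28.3 and 33.3 CPM in injured and 40.9, 35.5 and 31.3 CPM in non-injured libraries, which overlapped (log2 fold change -0.16 ± 0.16 SE).

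**Figure D2:**
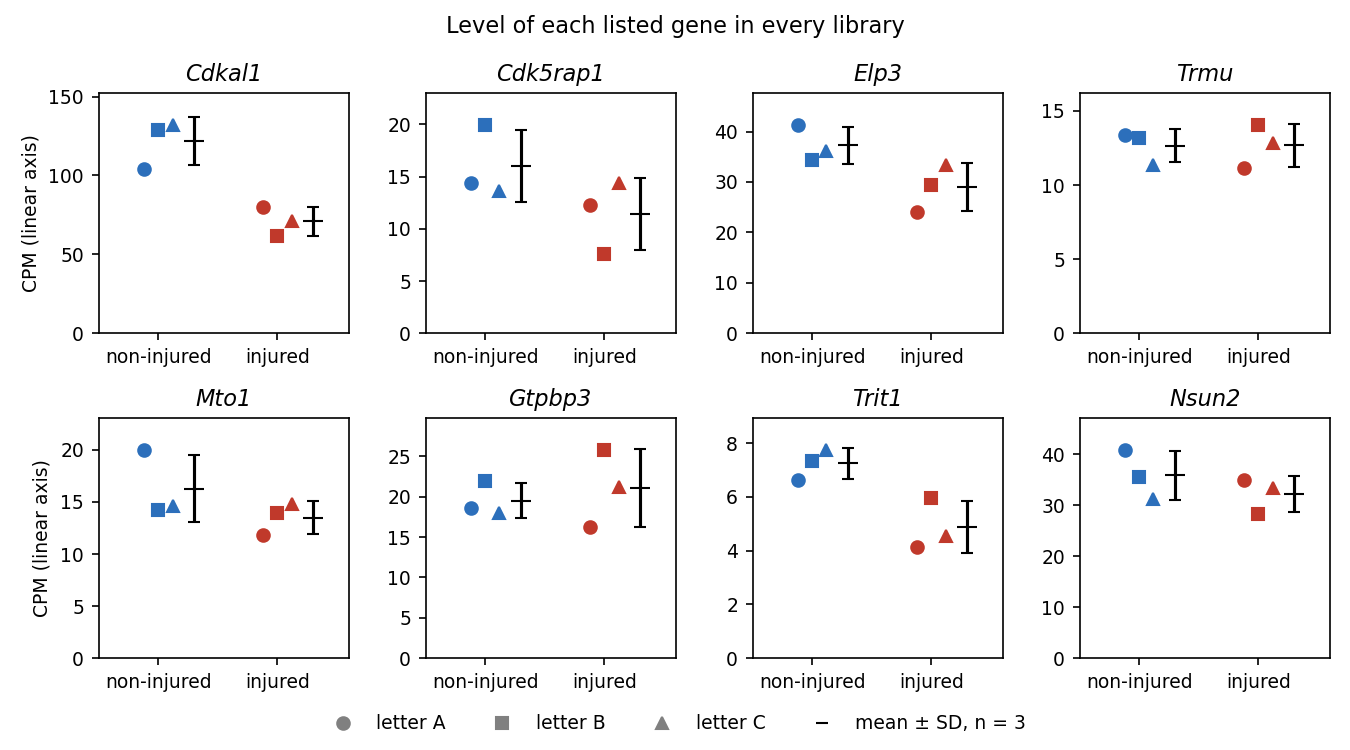
CPM of each of the 8 genes on a linear axis that starts at 0, in non-injured (blue) and injured (red) libraries, with the letter as the marker shape and the mean ± SD (n = 3) in black. Cdkal1, Elp3 and Trit1 have every injured library below every non-injured one, and the other 5 genes overlap.

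In total 6 of the 8 genes had a negative log2 fold change, and the median of the 8 was -0.32, beside 0.00 for all genes tested, of which 49.8% were negative. For 3 of the 8, Cdkal1, Elp3 and Trit1, the groups did not overlap with injured lower, and for 0 with injured higher; over all genes these shares were 9.57% and 11.9%. Cdkal1 was chosen for its low value. Of the other 7 genes, 5 were negative, the median was -0.27, and 2 did not overlap with injured lower. Groups that did not overlap, injured lower, were found for 321 of the 1574 protein-coding genes with a mean count within 2-fold of Cdkal1. Besides Cdkal1, none of the 7 genes was called, and the smallest adjusted p among them was 0.309 (edgeR), for Elp3. With the letter as a block the smallest among the 7 was 0.151, again for Elp3, and Cdkal1 had -0.78 ± 0.13 (SE, adjusted p 0.00246); that fit called 2.65% of all genes lower and 3.21% higher. A call missed at this depth does not show that a gene did not differ: the SE of these 7 genes ran from 0.16 to 0.26 on the log2 scale.

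The letters gave different pictures of the set. Within letter A, injured minus non-injured, all 8 genes were lower, with a median of -0.32 on the log2 scale, where 51.6% of all genes were lower. Within letter B 6 of 8 were lower (median -0.26), and within letter C 3 of 8 (median 0.05), where 49.3% and 49.7% of all genes were. Cdkal1 fell by 0.38 in letter A, by 1.06 in letter B and by 0.89 in letter C. Elp3 and Mto1 had their lowest value in letter A, -0.77 and -0.75, and Cdk5rap1 had its lowest in letter B, -1.36. Cdkal1 thus had its smallest difference in the letter where all 8 genes were lower.

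**Figure D3:**
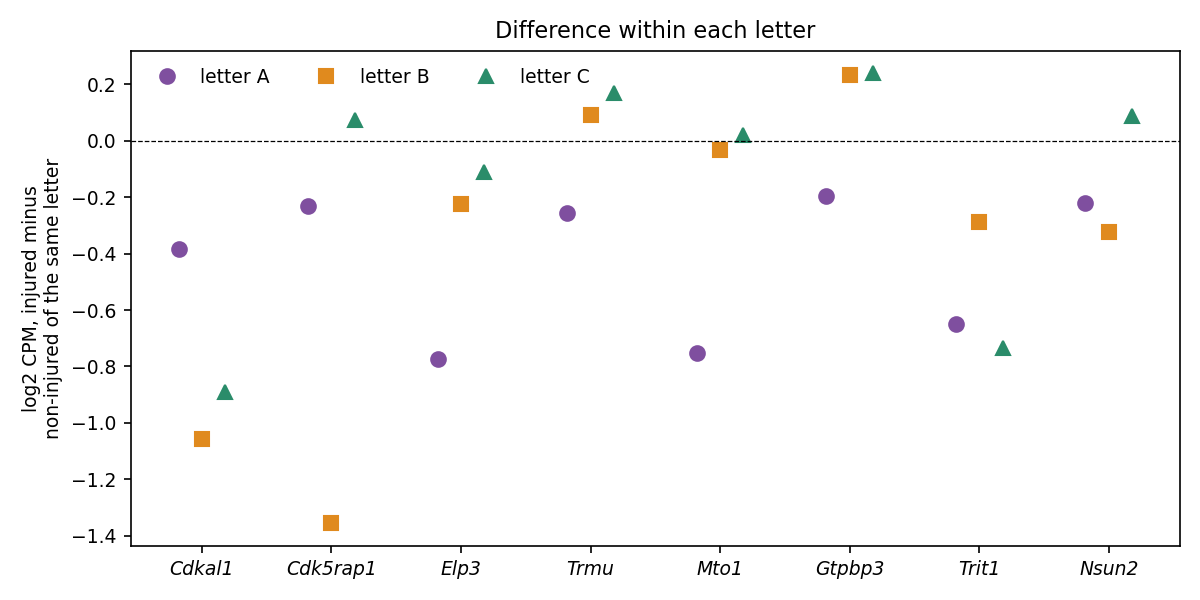
Difference in log2 CPM, injured minus the non-injured library of the same letter, on the vertical axis for each of the 8 genes, with 1 marker a letter. All 8 markers of letter A lie below 0, and in letter C only Cdkal1, Elp3 and Trit1 do.

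Levels of different genes can be compared only per length of RNA. Counted per kilobase of summed exons, Elp3 led with a mean of 11.0 CPM per kilobase over the 6 libraries, followed by Cdkal1 (7.53), Nsun2 (5.94), Gtpbp3 (5.09), Cdk5rap1 (4.0), Mto1 (3.65), Trmu (3.19) and Trit1 (2.91). On this scale Elp3 lay above Cdkal1 in both groups, with 8.01 to 11.2 against 4.82 to 6.25 CPM per kilobase in injured and 11.4 to 13.8 against 8.15 to 10.3 in non-injured libraries. Cdkal1 was above Nsun2 in every non-injured comparison (8.15 to 10.3 against 5.46 to 7.14), but their ranges overlapped in injured libraries (4.82 to 6.25 against 4.93 to 6.11). Further down the order neighbours overlapped in both groups, except that Mto1 was above Trmu in non-injured libraries. Among protein-coding genes the level of Elp3 lay above that of 88.0%, the level of Cdkal1 above 80.8% and that of Trit1 above 51.3%.

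For Cdkal1 the place in this order rests on the length used. The gene spans 664 kb of chromosome 13 (29191746 to 29855674, minus strand, mm10), longer than 99.4% of the protein-coding genes tested, and its exons from all transcripts sum to 12.8 kb, while its main coding transcript is 2.63 kb long. Per kilobase of that transcript Cdkal1 had 36.7 CPM and ranked 1 of 8, ahead of Nsun2 (12) and Elp3 (11.6); per kilobase of genomic span it ranked 8 of 8. The counts do not say which Cdkal1 transcripts were present, and how reads in introns were counted is not given in the sources used here.

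Genes were also compared by the length they span. The 136 protein-coding genes that span at least 500 kb had a median of 0.11 on the log2 scale, and 1 of them lay below the value of Cdkal1. Among the 1574 protein-coding genes with a mean count within 2-fold of that of Cdkal1, the median was -0.12, and it was -0.20 for the 22 that span at least 500 kb. Cdkal1 was the lowest of those 22, and in the whole set of like counts 4 genes lay lower. These are descriptions, since Cdkal1 was chosen for a low value.

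The genes beside Cdkal1 on chromosome 13 were examined with the same fit. Sox4, a transcription factor gene 238 kb to one side, had 29, 39 and 37 counts in injured and 10, 38 and 33 in non-injured libraries A, B and C (log2 fold change 0.63 ± 0.41 SE). After scaling every injured library lay above every non-injured one, at 4.44 against 4.42 CPM where they were nearest, and non-injured A was the lowest of the 6 at 1.28 CPM. E2f3, a cell cycle transcription factor gene 50.9 kb to the other side, had 13.3, 12.2 and 11.2 CPM in injured and 14.5, 11.8 and 12.7 CPM in non-injured libraries, which overlapped (log2 fold change -0.09 ± 0.19 SE). Of the 14 other genes within 1000 kb of Cdkal1, 0 passed the edgeR test and 1 had an unadjusted p under 0.05, the short unclassified model Gm47259 (2.21, at a mean of 10 counts, chosen for mention after its value was seen). Their log2 fold changes ran from -0.53 to 2.21 with a median of 0.05, all above the -0.78 of Cdkal1. Since Cdkal1 was chosen for a low value, its place below its neighbours is a description only.

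**Figure D4:**
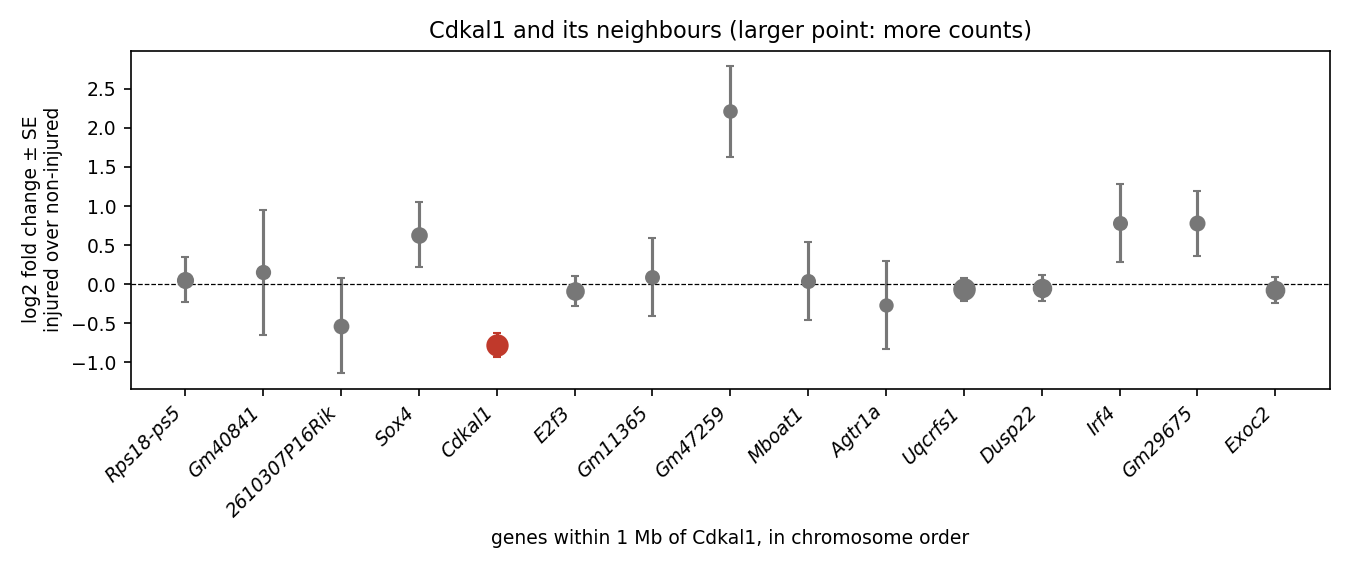
Log2 fold change, injured over non-injured, with its standard error for Cdkal1 (red) and the 14 other genes within 1000 kb of it (grey) in chromosome order; larger points had more counts. Cdkal1, which was chosen for a low value, has the lowest, -0.78, and the others run from -0.53 to 2.21.

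The wider machinery of tRNA modification was taken from 5 lists that hold none of the 8 genes. Of 78 listed genes 77 were in the table and tested, 0 rose and 0 fell in edgeR, and 3 had an unadjusted p under 0.05. DESeq2, limma-voom and the fit with the letter as a block called 0 as well. Over all genes edgeR without the block called 0.0311% lower and 0.715% higher, so 0 calls in a list this short say little. With the block the shares were 2.65% and 3.21%. The median log2 fold change of the 77 was -0.04, beside 0.00 for all genes, and 58.4% had a negative sign. For 7 of the 77 the groups did not overlap with injured lower and for 6 with injured higher, 9.09% and 7.79% beside the 9.57% and 11.9% of all genes given above. The summed level of the 77 was 872 ± 30.3 CPM in injured and 908 ± 37.1 CPM in non-injured libraries (SD, n = 3).

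**Figure D5:**
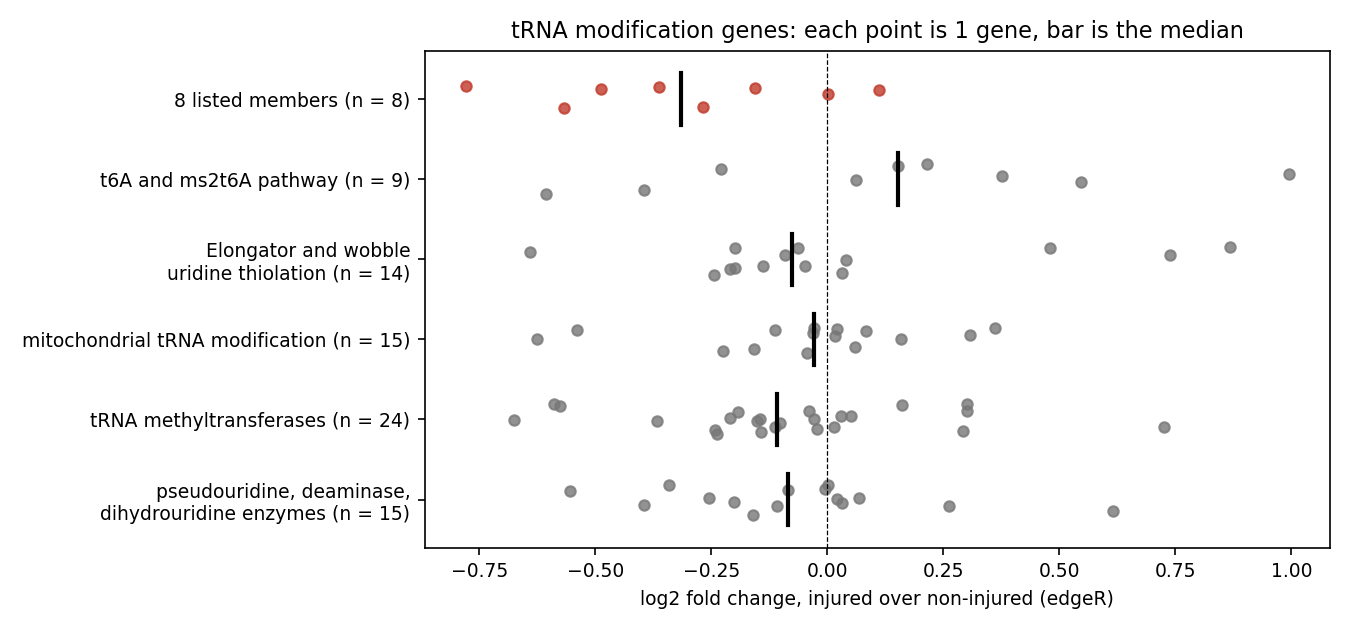
Log2 fold change, injured over non-injured, on the horizontal axis for the 8 listed genes (red) and for the genes of the 5 wider lists (grey), with 1 point a gene and the median as a bar. The lists' medians lie between -0.11 and 0.15 and the 8 genes' median at -0.32. Cdkal1, which was chosen for a low value, is the leftmost point at -0.78.

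The substrate of Cdkal1, threonylcarbamoyl adenosine, is made by Yrdc and the KEOPS complex around Osgep. In that list of 9 genes the median was 0.15 on the log2 scale, with 0 calls and 3 negative signs. Trmo, which methylates this base in some tRNAs, had 2.76, 3.06 and 2.71 CPM in injured and 1.40, 1.38 and 1.47 CPM in non-injured libraries A, B and C (log2 fold change 0.99 ± 0.42 SE, adjusted p 0.283), at a mean of 15.2 counts. Osgepl1, the mitochondrial relative of Osgep, had 19.8, 12.5 and 18.7 CPM against 21.4, 23.8 and 21.8 CPM (-0.40 ± 0.19, adjusted p 0.345). Both had groups that did not overlap, in opposite directions.

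The partners of Elp3 gave no common direction. Of 14 genes of Elongator and of the thiolation of wobble uridine, 9 had a negative sign, the median was -0.08, and 0 passed in edgeR, with 0 under an unadjusted p of 0.05 and 0 by DESeq2 or limma-voom. Those with the smallest p were Trmt112, an activator of several methyltransferases, with 3.06, 6.42 and 5.13 CPM in injured and 2.93, 2.98 and 2.81 CPM in non-injured libraries (0.74 ± 0.36 SE, adjusted p 0.347), and Ctu2 of the cytosolic thiolase (0.48 ± 0.25, adjusted p 0.394). Both had positive values, where that of Elp3 was negative.

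Mitochondrial tRNA enzymes other than the listed ones had values on both sides of 0. Their list of 15 ran from -0.63 to 0.36 on the log2 scale, with a median of -0.03, 8 negative signs and 0 calls, and summed to 163 ± 10.5 CPM in injured and 166 ± 8.90 CPM in non-injured libraries. Trmt2b, a mitochondrial uridine methyltransferase, had 7.04, 8.71 and 7.97 CPM in injured and 11.7, 10.8 and 14.2 CPM in non-injured libraries A, B and C (-0.63 ± 0.21 SE, adjusted p 0.188), and these groups did not overlap. Lyrm4, which helps to supply sulphur, had the next smallest p in this list (-0.54 ± 0.40, adjusted p 0.565, mean of 25.3 counts). All rows of the mitochondrial genome, not only the messages that these tRNAs translate, were 9.53% to 11.2% of counts in injured and 6.20% to 7.52% in non-injured libraries. Its 13 protein genes summed to 40540 to 50310 CPM in injured and 26840 to 32290 CPM in non-injured libraries. Of these 13, 6 rose in edgeR (mt-Atp6, mt-Co2, mt-Nd6, mt-Nd4l, mt-Nd4 and mt-Nd2, by 0.69 to 1.03 on the log2 scale), and all 13 with the letter block. Of the 22 mitochondrial tRNA genes themselves, 0 were found by name in the deposited table, so they could not be analysed.

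Methyltransferases and the remaining modifying enzymes also gave 0 calls. The 24 methyltransferases had a median of -0.11 and 16 negative signs; the smallest p in that list were those of Trmt11, a guanosine methylase (-0.59 ± 0.26 SE, adjusted p 0.301, injured below non-injured in every library), and Tyw3 of wybutosine synthesis (-0.58 ± 0.29, adjusted p 0.374). The 15 tested enzymes for pseudouridine, deamination and dihydrouridine had a median of -0.08, 9 negative signs and 0 genes with an unadjusted p under 0.05. Dus2, a dihydrouridine synthase, had -0.55 ± 0.30 (adjusted p 0.411) and Pus10, a pseudouridine synthase, -0.34 ± 0.21 (adjusted p 0.472).

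The genes whose levels ran most like those of Cdkal1 were found by Pearson's r of log2 CPM over the 6 libraries, among 8174 genes that averaged at least 50 counts and carry a standard symbol. These were Dleu2, a long noncoding RNA gene (r = 0.997), Zfp606, a zinc finger gene (0.995), Slc16a3, the lactate exporter of glycolytic fibres (0.992), Clk4, a kinase of splicing factors (0.992), and Adam4, of the ADAM metalloprotease family (0.990). Dleu2, for example, had 42.4, 37.0 and 39.2 CPM in injured and 51.5, 61.4 and 61.2 CPM in non-injured libraries A, B and C, with A nearest to the other group on both sides as in Cdkal1. The most opposed were Coro1b (-0.989), Igdcc4 (-0.984) and Ywhah (-0.978). The 6 points share the 2 groups for which Cdkal1 was chosen, so that r is a description of likeness. Among the other listed genes with enough counts, Cdk5rap1 had an r of 0.741, Elp3 0.549, Nsun2 0.415, Mto1 0.280, Trmu -0.305 and Gtpbp3 -0.399. In the order of likeness Cdk5rap1 ranked 1011.

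Gene models on the other strand overlap 3 of the 8 genes, and 1 model on the same strand lies inside Cdkal1. Nsun2 (chromosome 13, 69533746 to 69635780, plus strand, mm10) lies across Tent4a, Srd5a1 and 2 noncoding models of the other strand, Gtpbp3 (chromosome 8, 71488103 to 71499583, plus) meets the end of Plvap, and Mto1 (chromosome 9, 78448208 to 78475348, plus) meets Gm17324. No source used here gives the strand setting of the counting, so reads of these partners cannot be told apart. Cdkal1 has 1 intronic model inside it, Gm11364, on its own strand. That model has no row in the deposited table, so any reads of it cannot be told apart from those of Cdkal1. Cdk5rap1 (chromosome 2, 154335380 to 154373010, minus), Elp3 (chromosome 14, 65530449 to 65593075, minus), Trmu (chromosome 15, 85879312 to 85897394, plus) and Trit1 (chromosome 4, 123016597 to 123054949, plus) overlap no other model.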

How the data were processed

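The authors deposited their estimated counts for 6 libraries in a single table, where 72.24% to 74.54% of each library's values are whole. The submitters' processing notes name the tools STAR 2.7.8a, Partek and DESeq2 and the builds mm10 and hg19, with no role or order; no source used here gives the counter, the strand setting or the annotation. No row has a maximum under 10.0. Of 20015 rows, 19342 matched a GENCODE M21 gene (mm10) by name, start and end, with an end 1 base beyond counted as equal.

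Estimated counts were rounded. edgeR's filterByExpr kept 16095 genes, which were scaled by TMM and tested with the quasi-likelihood F test (edgeR 4.0.16, R 4.3.3), two-sided, with Benjamini-Hochberg adjustment and a threshold of 0.05. Standard errors (SE) were derived by dividing the size of a log2 fold change by the root of its F statistic. CPM use the TMM factors, and log2 CPM a prior count of 2. The fit was tested on simulated data. DESeq2 1.42.0 and limma-voom (limma 3.58.1), other scalings and filters, and fits without libraries were alternatives. Intervals and SDs over 3 libraries are imprecise, and at 6452791 to 8752501 counts a gene such as Trit1 rests on a mean of 45.3 counts.

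The members and lists were chosen with earlier results of these data known. Named were the 8 genes, the 5 genes most and 3 least like Cdkal1, and its neighbours. In each tRNA modification list, every gene past the threshold and the 2 with the smallest p were named. Marker lists are given as sums with the genes past the threshold, and a few further markers were named after their values were seen. Libraries of the same letter deviated together from their group means over 16095 genes (correlations 0.316 for A, 0.208 for B and 0.113 for C). Between unlike letters the correlations ran from -0.232 to 0.0643, so that letter C stood out least. The letters were treated as pairs in the fit with the letter as a replicate block. What a letter stands for is not in the labels.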

Additional observations from a re-analysis of the deposited data

How the results depend on the processing

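Cdkal1 had a negative sign in all 14 alternatives, which could hardly be otherwise, since it was chosen on this contrast and its groups did not overlap. Its log2 fold change was -0.71 with a mean of at least 50 counts, where the call was lost, and ran from -0.90 to -0.69 without 1 library, with the call kept in 2 of those 6 fits. With the letter as a replicate block it was -0.78, with the call kept. Genes past the threshold numbered 120 (115 higher, 5 lower), and 327 with DESeq2 (252 and 75), 59 with limma-voom (53 and 6), 943 with the replicate block (516 and 427), 297 without both letter A libraries (165 and 132) and 20 to 129 without 1 library. Of the 77 wider tRNA modification genes 0 passed in any of the 14 alternatives. The fit of 6 libraries without the block called 0.0311% of all genes lower and 0.715% higher, so 0 of 77 says little there. Of the 7 other members 0 were called in any setting; without both letter A libraries Elp3 moved to -0.17 and Mto1 to -0.01. Trit1 has no value with a mean of at least 50 counts. The place of Cdkal1 by level per length among the 8 genes was 2 with summed exons, 8 with genomic span and 1 with the main coding transcript, a length chosen after seeing the data. The 5 genes most like Cdkal1 were the same 5 with a prior count of 0.5. The causes of these differences were not tested.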

Other observations

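Enzymes that act on tRNA before or after modification gave 0 calls as well, where edgeR called 0.0311% of all genes lower and 0.715% higher. The 20 cytosolic aminoacyl-tRNA synthetases, which load amino acids onto tRNA, had 11 negative signs and a median of -0.03 on the log2 scale, and 0 had an unadjusted p under 0.05 in edgeR or passed in DESeq2 or limma-voom. Their smallest p were those of Mars1, for methionine, with 53.0, 60.5 and 64.5 CPM in injured and 76.3, 68.5 and 71.9 CPM in non-injured libraries A, B and C (-0.28 ± 0.14 SE, adjusted p 0.357), and Yars, for tyrosine (-0.27 ± 0.15, adjusted p 0.414). In both genes every injured library was below every non-injured one.

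The 17 mitochondrial synthetases had a median of -0.03 and 0 calls, with 1 unadjusted p under 0.05 and 0 by DESeq2 or limma-voom. Lars2, for leucine, had 274, 326 and 348 CPM in injured and 277, 238 and 233 CPM in non-injured libraries (0.34 ± 0.15 SE, adjusted p 0.291), and Tars2, for threonine, had the next smallest p (-0.19 ± 0.15, adjusted p 0.598). The groups of Lars2 overlapped through letter A, the letter in which Cdkal1 also had its smallest difference.

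The 21 tested genes of tRNA processing and export had a median of -0.04, 13 negative signs and 0 calls, with 2 at an unadjusted p under 0.05 and 0 by DESeq2 or limma-voom. These 2 were Tsen15 of the splicing endonuclease (-0.54 ± 0.22 SE, adjusted p 0.272) and Rpp38 of RNase P, which trims the start of tRNAs (-1.03 ± 0.47, adjusted p 0.323, mean of 20.3 counts).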
